A study of Rattus norvegicus with 10 samples.

Results

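The genes described here serve the peroxisome: its assembly, the import of its enzymes, the lipid oxidation inside it, the first steps of ether lipid synthesis and the proteins of its membrane. The tissue was the nucleus tractus solitarii, or NTS, where baroreceptor and other visceral afferents enter the brainstem, and the platform was an Affymetrix rat genome array. A list of 38 genes was set by name, with earlier results of these data known. A probe set was taken as a member where the platform annotation gave 1 of these genes as its single symbol. That rule found 47 of the 31042 probe sets, for 37 of the genes. Acaa1a, a peroxisomal thiolase gene, had no probe set of its own. A filter on dim probe sets, which asked for at least 5 of the 10 arrays at or above the 40th percentile of their array, kept 42 of the 47, for 34 genes, and 18846 probe sets of the whole series.

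The groups were 5 arrays of the spontaneously hypertensive rat (SHR), an inbred strain with high blood pressure, and 5 of the Wistar-Kyoto rat (WKY), its usual normotensive control strain. All animals were males aged 10 to 13 weeks, and the labels name no treatment or transgene for either strain. The sample descriptions speak of 5 animals, whereas the series' design text calls each chip an independent replicate, so it is not settled if RNA of 1 animal or of several was put on each chip. The p-values therefore rest on the spread among the deposited samples, which may be partly technical. The strains differ across their whole genomes, so the comparison is one of inbred strains and not of blood pressure alone.

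Peroxisomes are small organelles bounded by a single membrane. Their enzymes are made in the cytosol and brought in by peroxins, the products of the Pex genes, through receptors that are recycled after each round. Inside, very long chain, branched and dicarboxylic fatty acids are shortened by beta-oxidation, phytanic acid is trimmed by alpha-oxidation, and the hydrogen peroxide that arises is broken down by catalase. In brain the organelle is best known for making plasmalogens, the ether lipids of myelin, and human defects of it cause leukodystrophies and other neurological disease.

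SHR 2 and SHR 3 had the highest median signals of the 10 arrays, and WKY 4 and WKY 5 the lowest. The range was 44.2 to 49.8 in SHR and 39.6 to 45.7 in WKY, so signal level moved in part with strain, and its part in each result was not tested beyond the values given beside it. Of 10 genes chosen as marks of the dorsal vagal region, 8 had a probe set that passed the filter, among them Th, Dbh and Prlh (the 1 that was lower in SHR). Of 4 transcripts abundant in liver, a tissue rich in peroxisomes, Alb and Apoa1 did not pass the filter, at or below 29.4 and 3.45 on every array. The other 2 passed it: Ttr, which choroid plexus also makes, had 58.1 ± 20.4 in SHR and 67.0 ± 66.0 in WKY, and Serpina1 had 38.6 ± 8.23 and 32.0 ± 10.8. The summed signal of these 2 was 68.2 to 131 in SHR and 44.1 to 214 in WKY. Over all tested probe sets 2.20% were lower in SHR and 2.06% higher. Of 10 microglial probe sets 4 were lower in SHR and 0 higher, and their summed signal was 2220 to 2304 in SHR and 2617 to 2867 in WKY. Their differences were below 0 for 8 and above 0 for 2, a second probe set of Aif1 being among the 2. Of the 16 oligodendrocyte probe sets 2 were lower, both of Mobp, with summed signals of 10364 to 12721 and 9684 to 12482. Astrocyte probe sets had 1 of 14 lower, with sums of 15593 to 17842 and 15588 to 17349. Neuron probe sets had 1 of 13 higher, of Snap25, with sums of 15805.5 to 16983 and 14258 to 15989. Endothelial and meningeal probe sets each had 1 of 6 lower. Choroid plexus probe sets had 2 of 4 higher, Enpp2 and Sostdc1, with sums of 859 to 1017 and 648 to 917. Enpp2 made up most of these sums (748 ± 50.6 in SHR and 612.5 ± 62.3 in WKY). Ttr and Folr1 did not pass, Kl and Otx2 were below the filter, and Clic6 had no probe set. Of 6 probe sets for cerebellar granule neurons 0 passed, although all 6 differences were above 0. Their summed signal was 619.9 to 673.1 in SHR and 516.2 to 641.5 in WKY. Gabra6, a further gene of that list, was below the filter. The part of these cell types in the results on peroxisome genes was not tested. In bulk tissue fewer cells of a type and less RNA in each cell cannot be told apart.

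Of the peroxisome genes, 3 had a probe set that passed the test between the strains. Pxmp4, a peroxisomal membrane protein, was higher in SHR on both of its probe sets. Both met the filter mainly through SHR, and the call of the dimmer one ended with no filter. Crot, the carnitine octanoyltransferase that prepares shortened acyl groups for export from the peroxisome, was lower in SHR on 1 of 2 tested probe sets. So was Scp2, whose products include a thiolase for branched chains and a lipid carrier protein. The Scp2 difference was small (1.16-fold), below the size of several differences that did not pass. Its call ended in 8 of the 10 fits that left out an array. The other, brighter probe set of Scp2 had a log2 difference of 0.00039 and did not pass. In all 4 of the 42 tested probe sets passed (limma, Benjamini-Hochberg adjusted p below 0.05), 2 higher and 2 lower in SHR. That is 9.52% of the members against 4.26% of all tested probe sets (2.06% higher and 2.20% lower), and the 4 come from 3 genes. With 1 probe set for each gene, 2 of 34 genes passed, 5.88% against 4.11%, so the share of genes called was near the background. Because the list was chosen with earlier results of these data known, these shares describe it and test nothing. The median log2 difference (SHR minus WKY, of log2(signal + 16)) was 0.0052 over the members and 0.016 over all tested probe sets, and the median absolute difference was 0.11 and 0.12. The members were somewhat less variable than the whole array, with a median SD within a strain of 0.13 log2 units in SHR and 0.12 in WKY against 0.16 and 0.14.

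**Figure D1:**
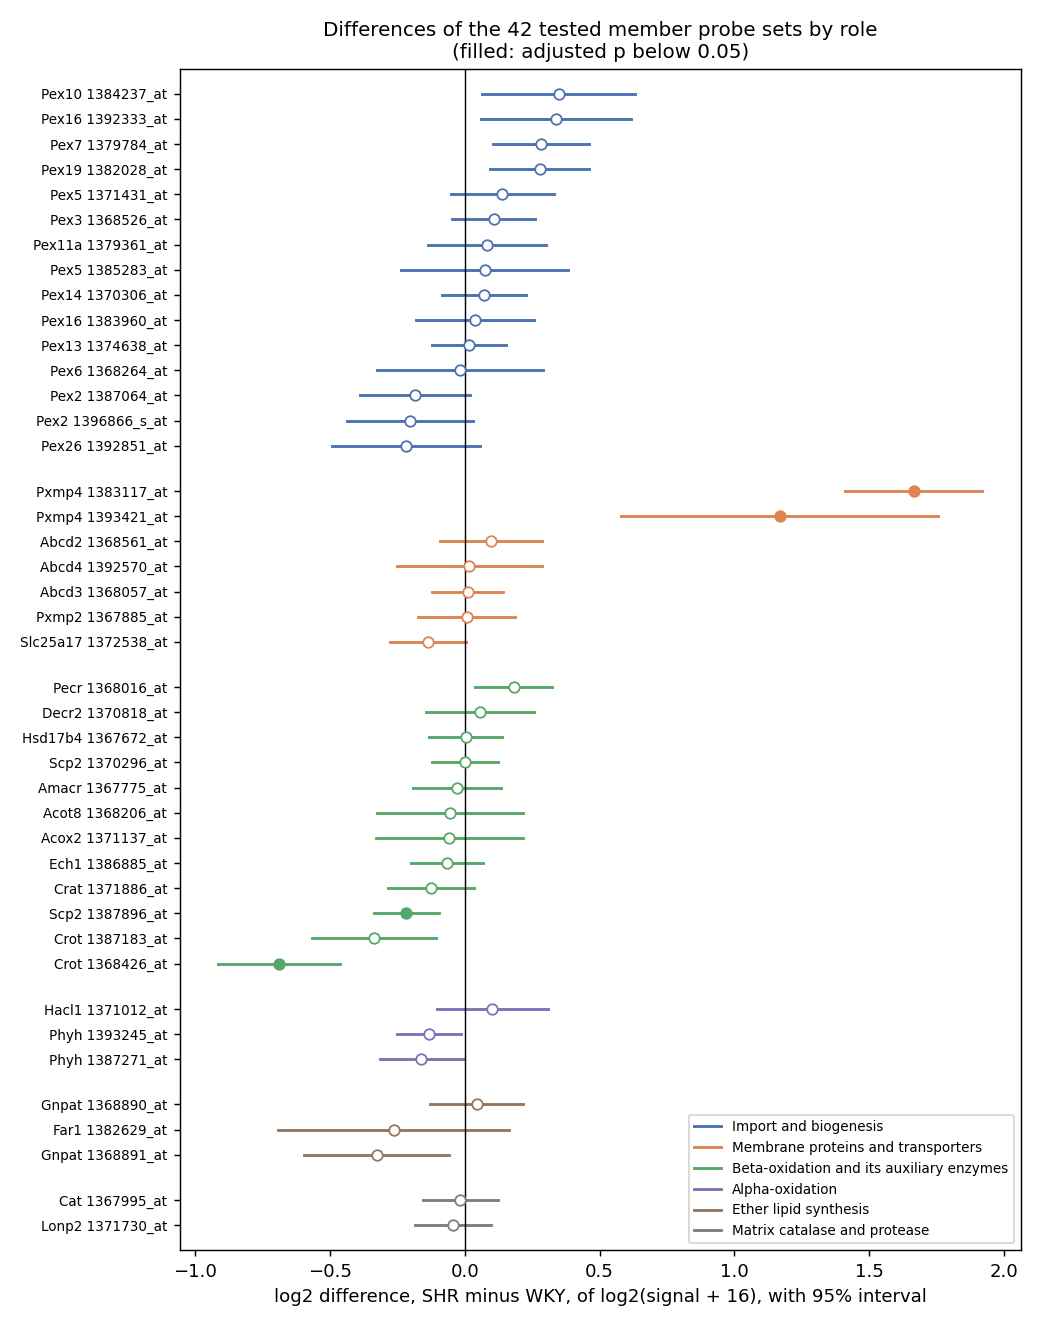
Log2 difference (SHR minus WKY, x axis) of each of the 42 tested probe sets, grouped by role, with its 95% interval; filled points passed at an adjusted p below 0.05. The 2 probe sets of Pxmp4 lie at 1.67 and 1.17, the passed probe set of Crot at -0.69 and that of Scp2 at -0.22, whereas the other 38 lie between -0.34 and 0.35.

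Among the 38 probe sets that did not pass, every 95% interval lay between -0.69 and 0.63, so a 2-fold difference was outside all of these intervals on the log2(signal + 16) scale. For 33 of the 38 the interval also lay within 0.5 log2 units of 0 on both sides. Values of the strains did not overlap for 6 of the 42, 3 with SHR above (Pxmp4, Pex7 and Pecr) and 3 with SHR below (2 of Crot and 1 of Scp2), where 6.13% of all tested probe sets had this, 3.22% with SHR above and 2.91% with SHR below. The arrays of a strain did not share the extremes evenly: SHR 3 was the highest of its strain for 15 of the 42 and the lowest for 9, while WKY 3 was the highest of its strain for 21 and WKY 5 the lowest for 16.

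Of the 7 membrane probe sets, 2 were higher in SHR, both of Pxmp4, and 0 lower. Over all tested probe sets 2.06% were higher and 2.20% lower. Pxmp4 encodes a small integral protein of the peroxisomal membrane, and its function is not well understood. On its brighter probe set the signal was 100.3, 148, 110.4, 101 and 112 in SHR 1 to 5. In WKY 1 to 5 it was 24.4, 29.8, 23.9, 28.8 and 18.0. Every SHR array lay above every WKY array, and SHR 2 was the highest. The means were 114 ± 19.4 in SHR and 25.0 ± 4.68 in WKY (SD, n = 5), with a log2 difference of 1.67 ± 0.12 (SE; limma adjusted p = 1.46e-07). The fold is not well fixed, since the WKY signals were low and are not shown to lie above background: it was 3.17 on the log2(signal + 16) scale and 4.58 as the ratio of the linear means. Differences of 2-fold or more that passed were rare on the array, at 0.276% of tested probe sets.

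The dimmer probe set of Pxmp4 had signals of 63.8, 52.5, 16.1, 75.1 and 61.8 in SHR 1 to 5. The WKY arrays stood at 7.52, 14.3, 33.1, 19.0 and 1.77. Here the strains overlapped, since SHR 3 fell below WKY 3 and WKY 4. The log2 difference was 1.17 ± 0.28 (limma adjusted p = 0.0234), and the call ended without SHR 1, SHR 2, SHR 4, WKY 1 or WKY 5 (0.99 to 1.15; adjusted p 0.0530 to 0.0717) but not without SHR 3 (1.43, adjusted p = 0.00143). Both probe sets reached the filter mainly through SHR: 5 SHR arrays and 1 WKY array of the brighter and 4 and 1 of the dimmer were at or above the percentile. A probe set kept in this way had to differ, so its passing the filter is no support. With no filter at all the brighter probe set passed (adjusted p = 5.37e-06) and the dimmer did not (0.0661); the dimmer also lost its call with the median-signal covariate (0.234). As WKY signals were low, the size depends on the offset: the brighter probe set differed by 2.16 with an offset of 1 and by 1.00 with an offset of 64, and passed with both. The dimmer one differed by 2.03 and 0.56, and with the offset of 1 it did not pass (adjusted p = 0.0514).

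**Figure D2:**
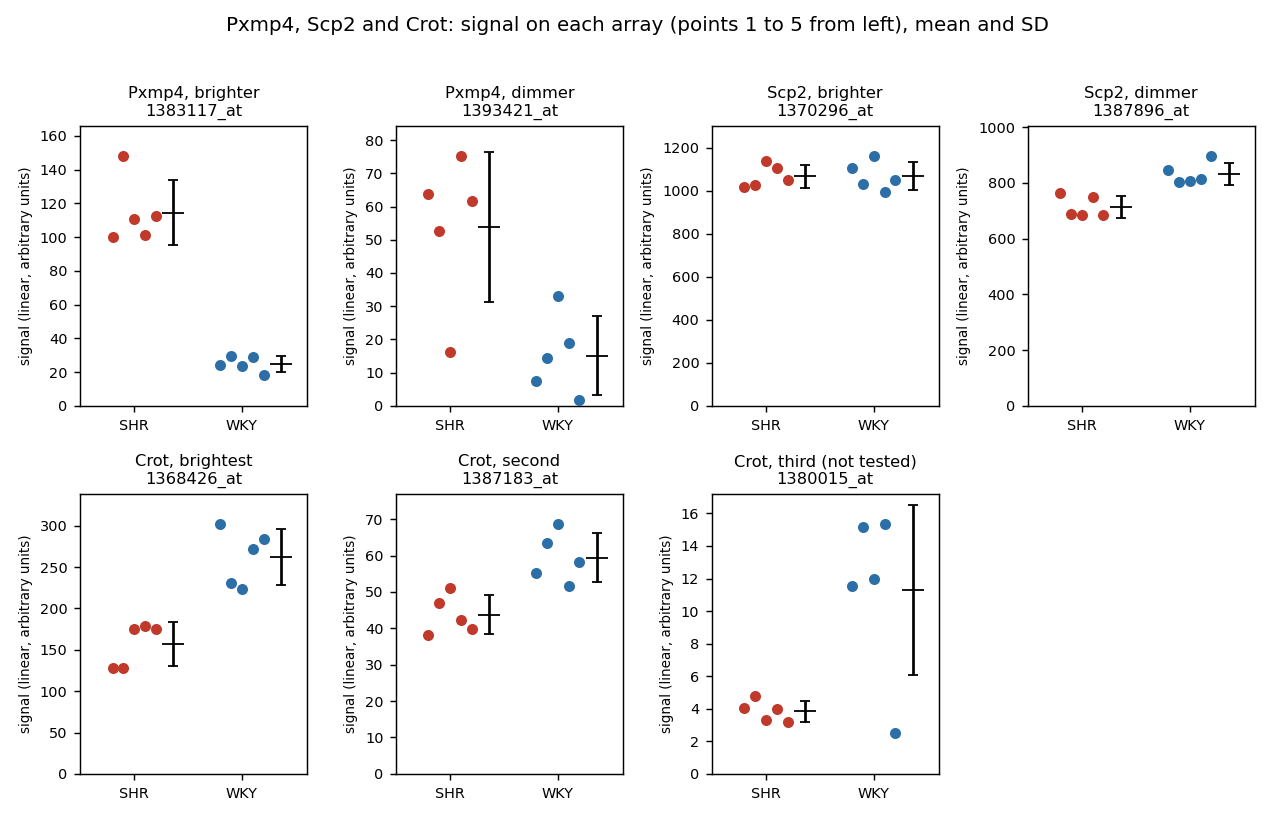
Signal (y axis, linear scale from 0, arbitrary units) on each array for the probe sets of Pxmp4, Scp2 and Crot, with points in number order from left and the mean with SD in black. SHR points lie above all WKY points for the brighter probe set of Pxmp4 and below them for the dimmer one of Scp2 and the brightest and second of Crot; the brighter one of Scp2 has interleaved points.

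The nearest genes with a tested probe set on either side of Pxmp4 in the RefSeq gene order were E2f1 and Zfp341. E2f1, a cell cycle transcription factor, stood at 41.9 ± 7.63 for SHR against 34.4 ± 5.42 for WKY (log2 difference 0.20 ± 0.13; limma adjusted p = 0.405). Zfp341, a zinc finger gene, had 93.8 ± 9.82 and 76.0 ± 12.9 (0.26 ± 0.11; adjusted p = 0.166). Neither passed. The 250 bases before the Pxmp4 start in the RefSeq promoter table (assembly GRCr8, of a Brown Norway rat and not of SHR or WKY) are shown because Pxmp4 carries the largest difference of the list, next to those of Cat, the catalase gene, the other member rich in the same motif. Capitals mark each CCAAT or its reverse complement ATTGG.
Pxmp4, chr3:163570830-163571079, minus strand: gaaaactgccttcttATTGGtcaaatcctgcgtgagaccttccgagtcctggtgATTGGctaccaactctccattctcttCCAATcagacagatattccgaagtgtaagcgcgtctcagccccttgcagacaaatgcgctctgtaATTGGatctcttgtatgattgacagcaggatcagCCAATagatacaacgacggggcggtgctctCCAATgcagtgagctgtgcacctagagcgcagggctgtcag
Cat, chr3:110329527-110329776, minus strand: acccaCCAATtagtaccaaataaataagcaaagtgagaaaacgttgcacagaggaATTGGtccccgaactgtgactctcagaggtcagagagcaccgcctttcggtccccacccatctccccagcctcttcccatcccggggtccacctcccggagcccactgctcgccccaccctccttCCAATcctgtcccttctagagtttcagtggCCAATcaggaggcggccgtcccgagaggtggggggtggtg
Pxmp4 has 6 such matches on both strands together and Cat 4 in the bases shown and 5 in the full window of 300 bases, which runs 50 bases past the start. Among all 33469 windows of the table, which include many predicted genes, 14 had 6 or more (0.0418%) and 73 had 5 or more (0.218%). The search for this motif was not planned beforehand. The limits of 6 and 5 are the counts of Pxmp4 and Cat themselves, so these shares describe chosen genes and test nothing. One match or more was present in 18 of the 35 member windows (51.4%) and in 37.5% of all windows, and GGGCGG or its reverse complement in 29 of 35 (82.9%) against 33.1%. The direct repeat of AGGTCA with 1 free base between the copies, to which peroxisome proliferator-activated receptors (PPARs) bind with their partner, had no exact match on either strand in any of the 35, against 0.0538% of all windows. With up to 1 mismatch it matched in Acot8 alone, 1 of 35 (2.86%) against 0.439% of all windows. With up to 2 mismatches it matched in Amacr, Crat, Cat and Acot8, 4 of 35 (11.4%) against 3.77%. With up to 3 it matched in 7 of 35 (20%) against 24.9%. The members' share was above that of all windows at the limits of 1 and 2 mismatches and below it at 3. None of the 4 genes named passed the strain test. A match of letters is a description and does not show a bound site. Of the 38 genes, 3 had no window in the table.

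The transporters of the membrane did not pass. Abcd3 and Abcd2 carry acyl-CoA into the peroxisome, Abcd4 is a related transporter that works mainly in the lysosome, and Slc25a17 exchanges cofactors such as coenzyme A and nucleotides. Abcd3 had 389, 398, 378, 409 and 376 in SHR and 414, 403, 402, 374 and 345 in WKY. Its strains overlapped throughout, with means of 390.0 ± 13.7 and 388 ± 28.1. Slc25a17 had 292, 265, 240.1, 254 and 292 in SHR and 293, 297, 284, 298 and 308 in WKY, where the SHR arrays reached lower and the groups overlapped. Pxmp2, a channel protein of the same membrane, had 169.8 ± 15.5 in SHR and 169 ± 18.2 in WKY, in contrast to Pxmp4. Abcd2 (75.5 ± 3.17 and 69.7 ± 6.54) and Abcd4 (67.5 ± 10.5 and 67.2 ± 15.2) also overlapped.

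Beta-oxidation and its auxiliary enzymes held 2 lower probe sets and 0 higher among 12 tested, from 10 of its 13 genes, where 2.20% of all tested probe sets were lower and 2.06% higher; the second of the 2 calls, of Scp2, ended in 8 of the 10 fits that left out an array. Crot was measured by 3 probe sets. On the brightest the signal was 128, 128, 176, 179 and 175 in SHR 1 to 5. It was 302, 231, 223, 272 and 284 in WKY 1 to 5. The highest SHR array was below the lowest WKY array, and SHR 1 and SHR 2 were the lowest. The means were 157 ± 26.6 and 262 ± 34.1 (SD, n = 5), and the log2 difference was -0.69 ± 0.11 (SE; limma adjusted p = 0.000989), 1.61-fold lower in SHR.

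The second probe set of Crot had 38.2, 47.0, 51.2, 42.2 and 39.7 in SHR and 55.2, 63.4, 68.6, 51.6 and 58.2 in WKY. These groups did not overlap either, with the highest SHR array just below the lowest WKY array. Its log2 difference of -0.34 ± 0.11 did not pass (limma adjusted p = 0.0890). It passed with quantile normalization (-0.43, adjusted p = 0.0217) and without the intensity trend (adjusted p = 0.0483). The third was too dim for the test, at 3.16 to 4.77 in SHR and 2.50 to 15.3 in WKY, where WKY 5 was the lowest of all 10 arrays. The call of the brightest probe set remained with each array left out (adjusted p up to 0.00493) and without both SHR 2 and SHR 3 (-0.66, adjusted p = 0.00334). It ended once the arrays' median signals entered the model as a covariate (-0.56, adjusted p = 0.0799).

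Scp2 was measured by 2 bright probe sets that did not behave alike. The gene gives rise, from separate starts, to the thiolase SCPx and to the shorter lipid carrier SCP2, and the sources used here do not say which transcript each probe set reads. On the dimmer probe set the signal was 765, 689, 684, 749 and 684 in SHR 1 to 5 and 847, 802, 807, 812 and 895 in WKY 1 to 5, without overlap. The means were 714 ± 39.5 and 832 ± 39.0, a log2 difference of -0.22 ± 0.057 (limma adjusted p = 0.0390), 1.16-fold lower in SHR. On the brighter one the signal was 1016, 1026, 1138, 1106 and 1051 in SHR and 1105, 1029.9, 1160.0, 994 and 1049 in WKY. These arrays were interleaved, and the log2 difference was 0.00039 with a 95% interval of -0.12 to 0.12. Whether the probe sets differ from each other in their response was not tested. The call of the dimmer probe set was close to the threshold: it held without SHR 1 or SHR 4 and ended without SHR 2, SHR 3, SHR 5 or any single WKY array (adjusted p 0.0319 to 0.112 over the 10 fits). It also ended with quantile normalization (adjusted p = 0.0642), with a common 75th percentile (0.0525), with no filter (0.0521), with array weights (0.0546), without the intensity trend (0.0994), without both SHR 2 and SHR 3 (0.163) and with the median-signal covariate (0.425).

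The central enzymes of the pathway showed no passed difference. Hsd17b4, the multifunctional protein that carries out the middle steps on branched and very long chains, had 309, 293, 297, 337 and 343 in SHR and 295, 309.8, 325, 322 and 320.4 in WKY. The values were interleaved, with means of 316 ± 22.9 and 314 ± 12.2. Ech1, an isomerase of dienoyl-CoA found in peroxisomes and mitochondria, had 782 to 854 in SHR and 756 to 975 in WKY. Amacr, the racemase that readies branched acyl-CoA for oxidation, had 105 ± 8.74 and 108 ± 3.09. Crat, the carnitine acetyltransferase and thus the short-chain counterpart of Crot, had 188, 185, 153, 182 and 188 in SHR and 191, 192, 185, 224 and 192 in WKY, with 1 low SHR array and 1 high WKY array. Acox2, the oxidase of branched substrates (41.1 ± 5.02 and 43.8 ± 9.42), Decr2, a reductase for unsaturated chains (70.9 to 100.3 and 77.6 to 90.6), and Acot8, a thioesterase (127 ± 9.83 and 136 ± 34.2), overlapped as well.

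Pecr, the peroxisomal trans-2-enoyl-CoA reductase, was the member of this role with SHR values wholly above WKY. It had 161, 169, 169, 156 and 163 in SHR and 144, 138, 154, 140.1 and 136 in WKY. The separation was narrow, and the log2 difference of 0.18 ± 0.068 did not pass (limma adjusted p = 0.135). Acox3, another branched-chain oxidase, and Ehhadh, the classical bifunctional enzyme of straight chains, were too dim to be tested. Acox3 lay between 2.32 and 28.5 in SHR and between 2.29 and 17.1 in WKY, and Ehhadh between 2.31 and 13.6 and between 6.64 and 19.6, overlapping in each case.

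None of the 15 probe sets of the 12 import and biogenesis genes passed the adjusted test in limma, although 4 had an unadjusted p under 0.05; over all tested probe sets 21.0% had such a p, and over the members 13 of 42. Of the 15 differences 11 were above 0 and 4 below, with a median of 0.073. Over all 18846 tested probe sets 10168 differences were above 0 and 8678 below, with a median of 0.016. Pex7, the receptor that carries enzymes with the second type of targeting signal, such as those of thiolase, Phyh and Agps, had 88.3, 97.3, 89.6, 102 and 97.9 in SHR. In WKY it had 75.3, 67.5, 78.6, 72.2 and 82.7. All SHR arrays lay above all WKY arrays, with a log2 difference of 0.28 ± 0.085 that narrowly missed the threshold (limma adjusted p = 0.0680) and passed without the intensity trend (0.0471).

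Pex19, the chaperone that delivers membrane proteins to the peroxisome, had 215, 218, 278, 207 and 267 in SHR and 190.3, 175, 216, 196 and 183 in WKY. SHR 1 and SHR 4 fell below the highest WKY array, WKY 3, and the log2 difference was 0.28 ± 0.087 (limma adjusted p = 0.0824). Pex10, a ubiquitin ligase that recycles the import receptor, had 48.8, 47.9, 41.2, 53.0 and 63.9 in SHR and 37.9, 51.6, 35.1, 30.3 and 29.2 in WKY, with WKY 2 inside the SHR range (0.35 ± 0.13; adjusted p = 0.146). Pex16, which acts with Pex19 and Pex3 in building the membrane, had 50.2, 76.5, 57.7, 85.9 and 80.7 in SHR and 54.7, 59.2, 56.3, 47.8 and 40.3 in WKY on its dimmer probe set (0.34 ± 0.13; adjusted p = 0.150). Its brighter probe set overlapped fully, at 92.7 ± 13.5 and 89.6 ± 10.6.

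**Figure D3:**
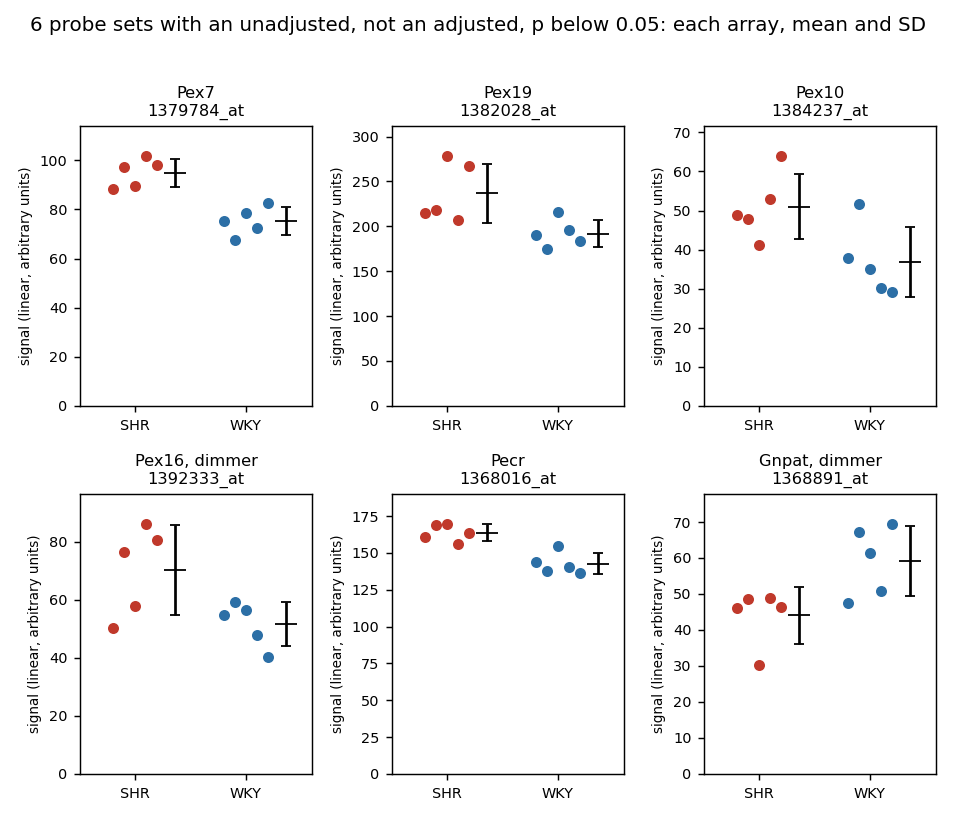
Signal (y axis, linear scale from 0, arbitrary units) on each array for Pex7, Pex19, Pex10, Pex16, Pecr and Gnpat, probe sets with an unadjusted p below 0.05 that did not pass after adjustment; black marks are the mean and SD of 5 arrays. SHR and WKY points are fully apart for Pex7 and Pecr and overlap for the other 4.

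The remaining peroxins showed overlapping strains. Pex14 and Pex13, which form the docking complex of the membrane, had 225 ± 22.8 and 213 ± 8.51 in SHR and 213 ± 11.4 and 211 ± 12.9 in WKY. Pex5, the receptor for the common targeting signal at the end of most matrix enzymes, had 144 to 194 in SHR and 136 to 168 in WKY on its brighter probe set. Pex3, the membrane anchor of Pex19, had 115 to 131 and 106 to 116, where SHR 2 alone fell below the highest WKY array. Pex2, a partner of Pex10 in the ligase complex, leaned the other way on both probe sets, with 97.4 ± 16.8 and 94.8 ± 12.7 in SHR and 114 ± 13.5 and 109.6 ± 11.8 in WKY. Pex6, an ATPase that extracts the receptor, had 59.5 ± 14.7 and 60.5 ± 14.7, and Pex26, its membrane anchor, 73.4 ± 18.6 and 86.2 ± 6.21. Pex11a, a factor of peroxisome division, had 68.4 ± 8.54 and 63.6 ± 7.40 on its brighter probe set, and its second lay at 5.34 to 22.9 in SHR and at or below 14.7 in WKY, under the filter.

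Alpha-oxidation was represented by 3 probe sets of 2 genes, none of which passed. Phyh, the phytanoyl-CoA hydroxylase whose loss causes Refsum disease in humans, had 595, 566, 578, 624 and 616 in SHR and 658, 597, 665, 686 and 670.2 in WKY on its brighter probe set. Just 1 WKY array, WKY 2, fell within the SHR range. The second probe set had 492, 419, 457, 519 and 429 against 575, 459, 530.2, 495 and 539. Both were lower in SHR on average, with log2 differences of -0.13 ± 0.057 and -0.16 ± 0.073 that did not pass (limma adjusted p = 0.186 and 0.219). Hacl1, the lyase of the next step, had 80.0 ± 9.78 in SHR and 73.3 ± 7.28 in WKY.

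Ether lipid synthesis starts in the peroxisome with Gnpat and Agps, while Far1 supplies the fatty alcohol. Gnpat, the acyltransferase of the first step, gave 102, 106, 114, 99.3 and 98.7 in SHR and 86.4, 105, 107, 103 and 102 in WKY on its brighter probe set, fully overlapping. Its dimmer probe set had 46.2, 48.5, 30.1, 49.0 and 46.4 in SHR and 47.5, 67.1, 61.3, 50.8 and 69.4 in WKY, with WKY 1 alone inside the SHR range (log2 difference -0.33 ± 0.13; limma adjusted p = 0.152). Far1 was near the filter, at 5.97 to 34.3 and 24.1 to 39.8. Agps, the alkyl synthase, was not tested, with signals of 2.04 to 4.19 and 2.52 to 5.22 that are too low to judge. Catalase, which removes hydrogen peroxide, and Lonp2, a matrix protease, were alike in both strains within their spread: Cat had 412 ± 20.8 in SHR and 418 ± 34.5 in WKY, and Lonp2 had 494 ± 31.7 and 511 ± 41.0.

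Of the 8 genes with 2 tested probe sets, 6 had differences of the same sign on both, namely Crot, Pex16, Pex2, Pex5, Phyh and Pxmp4. For Gnpat and Scp2 the signs were opposite, in each case with 1 probe set close to 0. Pxmp4 was the only one of the 8 with both probe sets past the threshold. Its dimmer probe set met the filter mainly through SHR. The call of that probe set ended with no filter and in 5 of the 10 fits that left out an array.

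**Figure D4:**
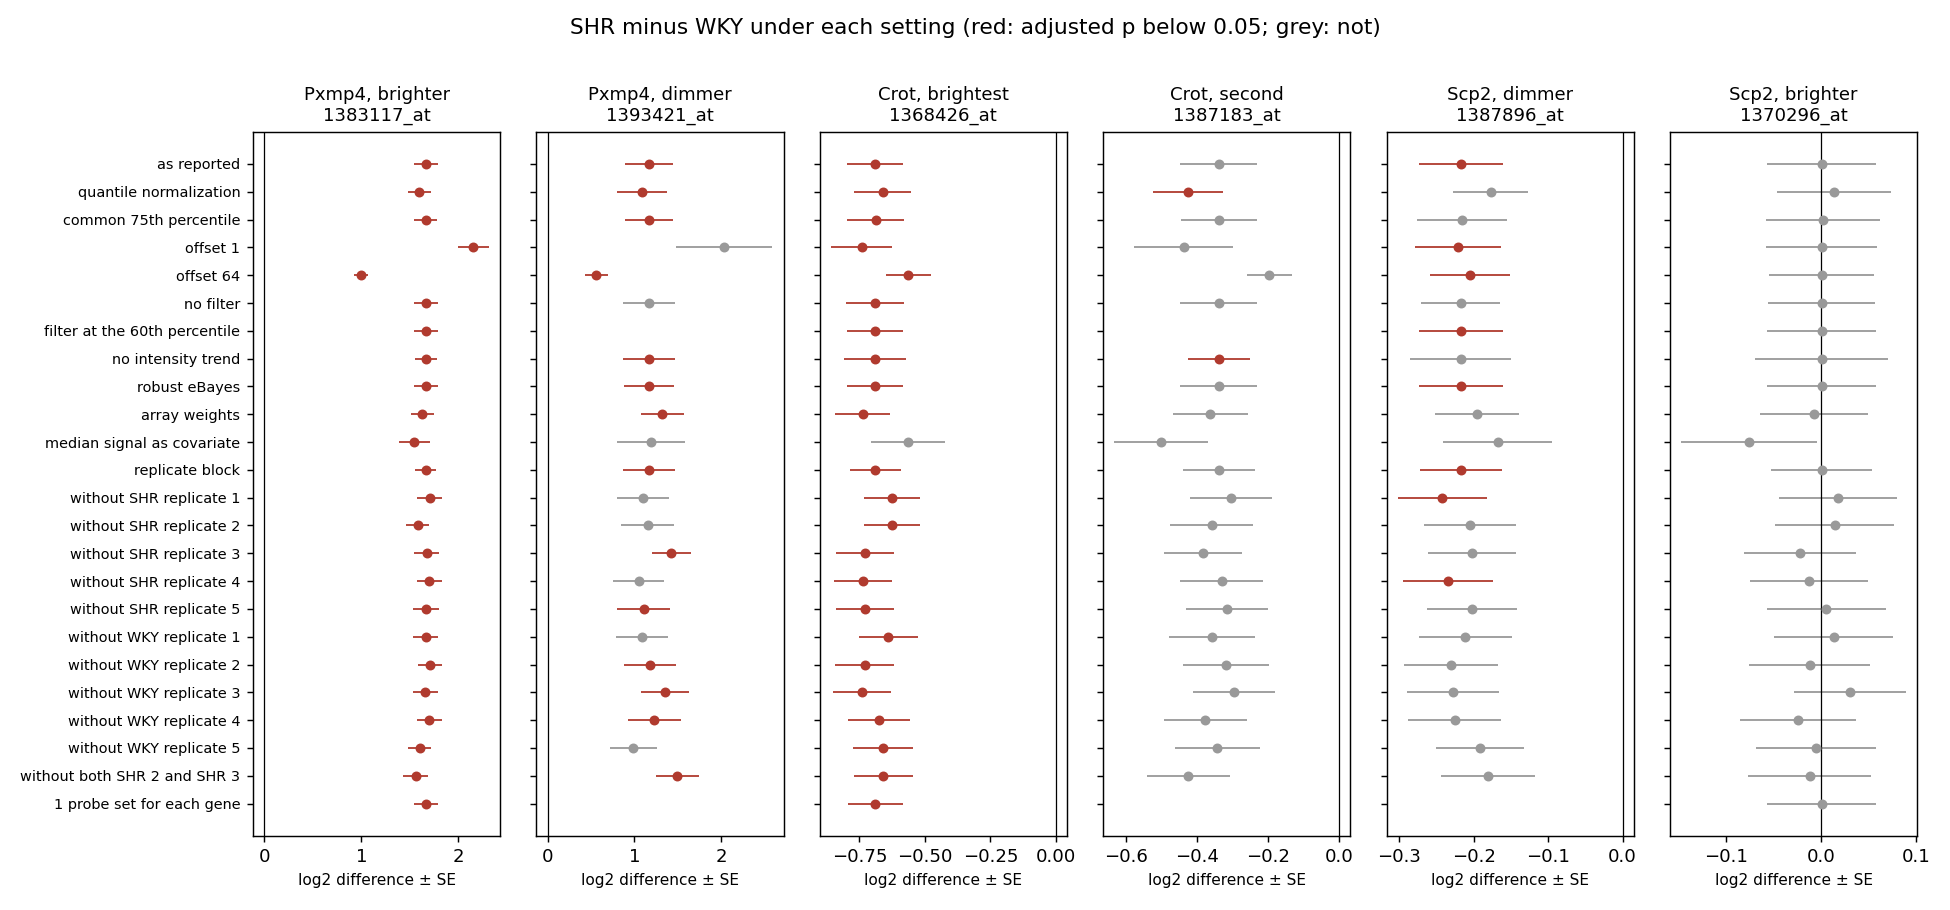
Log2 difference (x axis, SHR minus WKY, with SE; each panel has its own scale) of the tested probe sets of Pxmp4, Crot and Scp2 under each processing setting (rows); red points passed at an adjusted p below 0.05. The brighter probe set of Pxmp4 passed in every setting shown and the brighter one of Crot in all but the median-signal covariate, while the dimmer one of Scp2 passed in 2 of the 10 fits that left out an array.

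Other genes of the organelle and of neighbouring pathways were taken from lists, also chosen with earlier results of these data known. Of 48 probe sets for 37 other peroxisomal genes, 6 passed (12.5%, against 4.26% of all tested probe sets), 1 higher and 5 lower in SHR (background 2.06% and 2.20%), with a median difference of -0.029. The higher one was Ephx2, the soluble epoxide hydrolase, part of which is peroxisomal (113 ± 20.1 in SHR, 23.9 ± 4.48 in WKY; log2 difference 1.69 ± 0.13; limma adjusted p = 2.34e-07). Acsl3, a long-chain acyl-CoA synthetase, was lower, with 416 ± 50.9 in SHR and 649 ± 37.9 in WKY (log2 difference -0.63 ± 0.079; limma adjusted p = 0.000112). Dao, the D-amino acid oxidase of peroxisomes, was lower too, with 38.0 ± 6.41 and 63.4 ± 7.80 (-0.56 ± 0.12; adjusted p = 0.0104). Gstk1 was lower as well, with 236.5 ± 15.4 in SHR and 290 ± 22.2 in WKY (log2 difference -0.28 ± 0.069, limma adjusted p = 0.0308). Mpv17l and Vwa8 were each lower on 1 probe set (log2 differences -0.63 and -0.58). Their other probe sets did not pass (0.30 and -0.034). Of 21 probe sets of mitochondrial fatty acid oxidation, 1 passed: Etfa, a subunit of the electron transfer flavoprotein, was lower in SHR (358 ± 34.7 and 456 ± 21.9; -0.34 ± 0.069; adjusted p = 0.00885).

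Among 23 probe sets of PPAR regulators and targets, 1 was higher and 1 lower (8.70% in all, against 4.26% of all tested probe sets). Plin2, a lipid droplet coat protein, was lower, with 148 ± 11.2 in SHR and 193 ± 17.1 in WKY (log2 difference -0.34 ± 0.077; limma adjusted p = 0.0161). Its second probe set, at 151 and 169.7, did not pass (adjusted p = 0.389). Ppargc1b, a transcriptional coactivator, was higher at the edge of the threshold (90.8 ± 15.8 and 61.7 ± 12.6; 0.46 ± 0.13; adjusted p = 0.0498). None of the 10 probe sets for later steps of plasmalogen synthesis and turnover passed in limma, and 2 had an unadjusted p under 0.05.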

How the data were processed

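Total RNA of the NTS was amplified and hybridised to 1-colour arrays, per the labels' protocols. Per array, the authors deposited an untransformed intensity of every probe set; the submitters' processing notes name GCOS 1.2, and no detection calls were used. From the values, the deposited intensity had been scaled to a common trimmed mean (2% cut from both tails) of 100. At most 2 probe sets had equal values in any pair of arrays. An unnumbered title was taken as replicate 1 of its strain.

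The 57 control probe sets were left out, the filter above was applied, and log2(signal + 16) was fitted with strain as the single term in limma 3.58.1 (R 4.3.3; lmFit, eBayes with an intensity trend). P-values were adjusted by the Benjamini-Hochberg method over 18846 probe sets; folds are on the log2(signal + 16) scale and understate low signals. Platform symbols were brought up to date by Entrez identifier (RefSeq, GRCr8): 20826 probe sets had 1 symbol, 436 several and 9780 none. The number of arrays limits the precision. Array values are given for members past the threshold, members without overlap and examples of each role.

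The members, roles and lists were chosen with earlier results of these data known. Alternatives were other scalings, offsets of 1 and 64, no filter and a filter at the 60th percentile, other variance models, array weights, a median-signal covariate, the replicate number as a block, 1 probe set for each gene, and leaving out arrays. Protein sequences were not used here.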

Additional observations from a re-analysis of the deposited data

Results flagged for a closer look

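Within a strain, 7 of the 84 sets of 5 member values had 1 array standing apart (gap to its nearest neighbour over 0.71 of the range on the log2 scale); chance gives about 1 in 20. For Pxmp4, SHR 2 stood at 148 on the brighter probe set against 100.3 to 112 on the other SHR arrays, and SHR 3 at 16.1 on the dimmer one against 52.5 to 75.1. For Crat, SHR 3 stood at 153 against 182 to 188 and WKY 4 at 224 against 185 to 192. For Gnpat, SHR 3 stood at 30.1 on the dimmer probe set against 46.2 to 49.0, and WKY 1 at 86.4 on the brighter one against 102 to 107. For Amacr, SHR 5 stood at 121 against 99.7 to 104. SHR 3 accounts for 3 of the 7.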

How the results depend on the processing

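The brighter probe set of Pxmp4 passed under every alternative run (log2 difference 1.00 to 2.16), and that of Crot under all but the median-signal covariate (-0.74 to -0.56). The count of members past the threshold, 4, became 2 without a filter and with 1 probe set for each gene, 1 with the median-signal covariate, and 2 to 3 with 1 array left out. With both SHR 2 and SHR 3 left out it was 3. The count of all probe sets, 803, became 206 with the covariate, 512 without both SHR 2 and SHR 3, and 480 to 976 with 1 array left out, the lowest without WKY 4 and WKY 5. With the replicate block it became 1214, and the members 5, Pex19 being added (adjusted p = 0.0443). Same-numbered arrays deviated together with correlations of 0.038 to 0.28, not all above 0.1. For 3 of the 5 the value exceeded every pairing of that SHR array with another WKY array. The WKY arrays were not compared in the same way with the other SHR arrays. The labels give no shared source for a number, so pairing was not assumed. The difference of the brighter Scp2 probe set, near 0, turned to -0.0074 with array weights, -0.076 with the covariate and -0.012 without both SHR 2 and SHR 3, and ranged from -0.024 to 0.030 with 1 array left out. The cause of these changes was not tested. Signals near the low end of the array, as for Agps, Ehhadh, Acox3 and the WKY values of Pxmp4, cannot be judged against background.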
